A study of Mus musculus with 10 samples.

Results

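The cells described here were epithelial cells of the aged mouse cochlea that carried transcripts of the interdental and pendrin epithelium, and 383 of the 7272 cochlear cells kept were of this kind. A cell was a member when it had at least 200 genes, at least 1000 UMIs (unique molecular identifiers, counted molecules), less than 25% mitochondrial UMIs, a UMI in at least 3 of the 6 genes Otoa, Slc26a4, Ceacam16, Fxyd3, Ppp1r1b and Mia, and a UMI in fewer than 3 of the 6 hair cell genes Myo6, Myo7a, Pou4f3, Tmc1, Kncn and Gfi1. These 12 genes chose the cells, so their levels are given as a description. Members with more Otoa than Slc26a4 UMIs are called Otoa cells, those with more Slc26a4 than Otoa UMIs pendrin cells, and the rest ties.

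The study profiled single cells of inner ear sensory epithelia from wild-type CBA/J mice, a strain used for late hearing and balance decline. All libraries used here came from animals aged 22 months, males and females together, with several mice pooled in each library, and no treatment beyond ageing was given. The groups were old cochlea and old vestibule, microdissected from the same kind of ear, and young libraries were not analysed here. Nothing links an animal to a cell, so a library is the replicate.

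Interdental cells line the spiral limbus and secrete tectorial membrane proteins, among them otoancorin, the product of Otoa, which holds the tectorial membrane to the limbus. Pendrin, the product of Slc26a4, is an anion exchanger of outer sulcus, spindle and root cells in the cochlea and of transitional cells in the vestibule, where it moves bicarbonate into endolymph. Ceacam16 encodes a structural protein of the tectorial membrane.

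Replicate 2 of each organ repeated replicate 1 and was left out. The 2 cochlear libraries shared 1313 barcodes and the 2 vestibular ones 1633, while no other pair of libraries shared more than 41. The same barcode in replicates 1 and 2 had a median correlation of 0.993 in cochlea and 0.996 in vestibule, against 0.413 and 0.257 for different barcodes. Results therefore rest on replicates 1, 3, 4 and 5 of each organ, with 17696 cells kept in all. These held 2738036, 26974948, 5349308 and 5452292 UMIs in cochlea and 4150642, 24104850, 10318267 and 9482901 UMIs in vestibule.

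Members were 12 of 571 cells in cochlear replicate 1, which is 2.10% (95% exact binomial interval 1.09 to 3.64). They were 247 of 5070 in replicate 3 (4.87%, 4.30 to 5.50). They were 67 of 695 in replicate 4 (9.64%, 7.55 to 12.1) and 57 of 936 in replicate 5 (6.09%, 4.64 to 7.82). The share was 5.68% ± 3.13 (SD, n = 4) and differed between libraries by more than the intervals, which cover counting error only. Replicate 3 supplied most of the cells.

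There were 101 Otoa cells, 155 pendrin cells and 127 ties. Of the 383 members, 106 held UMIs of both genes, 81 of Otoa alone, 106 of Slc26a4 alone and 90 of neither. A lead of 1 UMI decided 153 cells, and the division rests on sparse counts. The members had a median of 3271 UMIs, the Otoa cells 3697, the pendrin cells 2593, the ties 4196 and all other cochlear cells 2143.

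**Figure D1:**
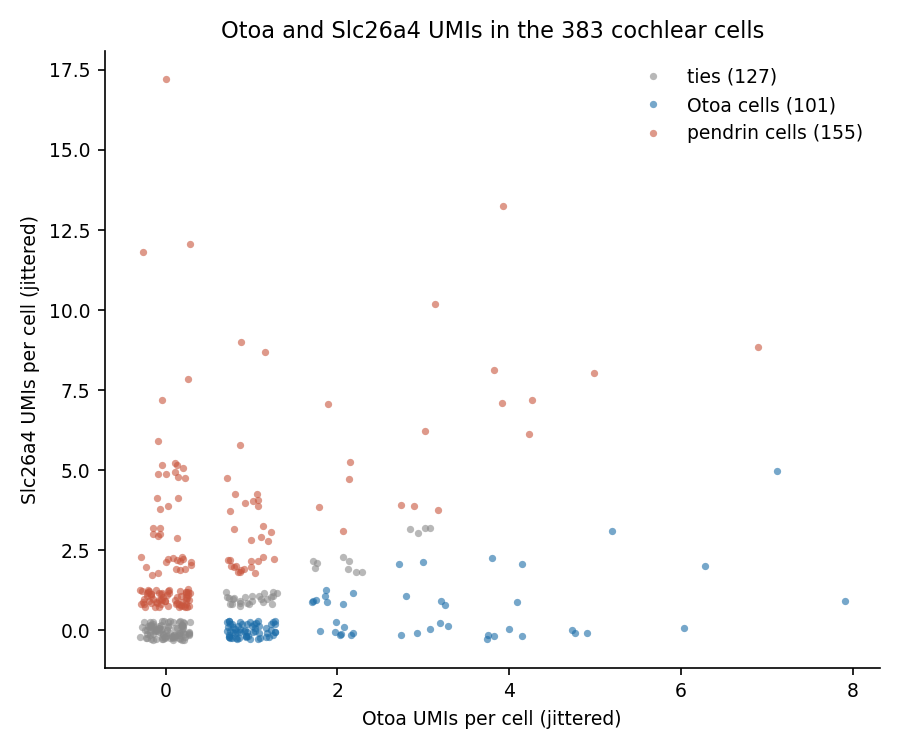
Otoa UMIs (x axis) against Slc26a4 UMIs (y axis) in each of the 383 cochlear members, jittered so that equal counts can be seen apart, with Otoa cells in blue, pendrin cells in red and ties in grey. Most cells lie at 0 or 1 UMI of each gene, and 106 cells held both.

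The rule had thresholds, and cells on either side of them are described here. Exactly 3 of the 6 markers were present in 215 members and 4 or more in 168, while 687 other cells had 2. In replicate 3, the summed Otoa level was 79.5 CPM (the count of a gene scaled to 1000000 UMIs) in cells with exactly 3 markers and 19.9 CPM in those with 2. Slc26a4 stood at 117 and 47.9 CPM in the same cells. Replicates 4 and 5 ran the same way. Replicate 1 ran the other way, with Otoa at 0 and 12.2 CPM and Slc26a4 at 80.6 and 97.5 CPM. Otoa and Slc26a4 are both rule genes, so their levels cannot show whether such cells differ. Outside the rule, Padi1 stood at 201, 449, 773 and 363 CPM with exactly 3 markers and 189, 330, 273 and 331 CPM with 2. Epcam stood at 443, 977, 1071 and 1142 CPM against 390, 749, 1222 and 1057 CPM. Padi1 was thus higher in every library, though by little in replicate 1, where 6 cells held exactly 3 markers. Epcam was not higher in every library. The hair cell limit removed 17 cells.

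Ceacam16, which carries the tectorial membrane protein, had a UMI in 89.3% of members. It also had one in 23.6% of the other cochlear cells, and it averaged 23.6 CPM in cells with macrophage markers, which should lack it. Otoa had a UMI in 48.8% of members and 1.57% of other cells, and Slc26a4 in 55.4% and 2.55%. A single Ceacam16 UMI was thus common outside the members, at a median depth of 2143 UMIs per cell.

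The label was checked against epithelial genes that the rule did not use. Epcam, an epithelial adhesion molecule, stood at 704, 974, 1332 and 1089 CPM in the members of replicates 1, 3, 4 and 5, against 294, 322, 582 and 432 CPM in the other cells, and had a UMI in 89.0% of members. Cldn9, a tight junction claudin of the endolymph barrier, stood at 722, 624, 480.5 and 665 CPM against 258, 163, 227 and 190.3 CPM. In both genes every library was higher in members. Supporting-marker cells were near the members in Epcam, with a mean of 955 CPM, and stood at 430.3 CPM in Cldn9. The epithelial adhesion and keratin list as a whole summed to 1698 CPM in members and 1692 CPM in supporting-marker cells, so it did not set the members apart from that epithelium. The hair cell genes were limited by the rule and are no check of the label. Of them Pou4f3, Tmc1, Kncn and Gfi1 had no UMI in any of the 383 cells, which allows a share of cells with a UMI of up to 0.783%, while Myo6 had a UMI in 49.1%.

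Other cell types' genes were present too. Of the members, 99 (25.8%) held at least 3 of 6 markers of another class, 49 of them supporting cell markers, 22 fibrocyte, 21 Reissner membrane and 15 glial markers. Macrophage markers summed to 18.3 CPM in members and 7753 CPM in macrophage-marker cells, with C1qb the most abundant. Red blood cell genes summed to 2237, 2054, 25.2 and 96.7 CPM in the members of replicates 1, 3, 4 and 5, led by Hbb-bs, and neutrophil genes to 70.4, 1055, 0 and 0 CPM, led by S100a8. The part of these cells in the values below was not tested.

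Against all other cochlear cells, 132 of 7515 genes were at least 2-fold higher in members in all 4 libraries (1.76% of those tested) and 517 at least 2-fold lower (6.88%). Because members were picked by their transcripts, these are descriptions with no test. Beyond the rule genes the strongest was Tcap, which encodes the muscle protein telethonin, at 159, 277, 469.7 and 111 CPM in members and 5.99, 11.9, 27.4 and 10.9 CPM in other cells. The mean log2 ratio of Tcap over the libraries was 4.05 ± 0.59 (SD, n = 4), and the values of members and other cells did not overlap. In replicate 5 a minority of members carried Tcap, since the 34 members with exactly 3 markers stood at 12.1 CPM and the other 23 at 346 CPM.

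Ltbp2, a microfibril-associated protein of the extracellular matrix, stood at 35.2, 38.1, 36.0 and 51.2 CPM in members against 4.49, 2.60, 3.68 and 1.30 CPM. Bcam, a laminin receptor of basal epithelial surfaces, stood at 369.8, 358, 359.9 and 367 CPM against 92.3, 69.2, 101 and 94.0 CPM. Aox2, an aldehyde oxidase, stood at 194, 81.5, 144 and 114 CPM against 27.9, 16.1, 20.7 and 24.7 CPM. The supporting-marker cells of the same libraries, 484 in number, averaged 5.60 CPM of Tcap, 1.29 of Ltbp2, 134 of Bcam and 45.1 of Aox2. In each of these 4 genes the members were above the supporting-marker cells.

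The other leading genes were Lemd1, Smtnl2, Degs2, Bricd5, Itgbl1, Ucma, 9130008F23Rik and Crip2, with mean log2 ratios between 2.06 and 3.19. Ucma, a cartilage matrix protein, stood at 52.8, 87.8, 266 and 91.0 CPM in members and 8.48, 26.6, 52.0 and 20.04 CPM in other cells. Gpx2, a glutathione peroxidase of epithelia, stood at 2025, 1386, 1629 and 1521 CPM against 758, 441, 535 and 584 CPM. P2rx2, the ATP-gated channel through which cations leave endolymph, stood at 247, 152, 109.8 and 145 CPM against 58.9, 33.5, 35.7 and 43.5 CPM. Gpx2 and P2rx2 were at least 2-fold higher in every library.

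**Figure D2:**
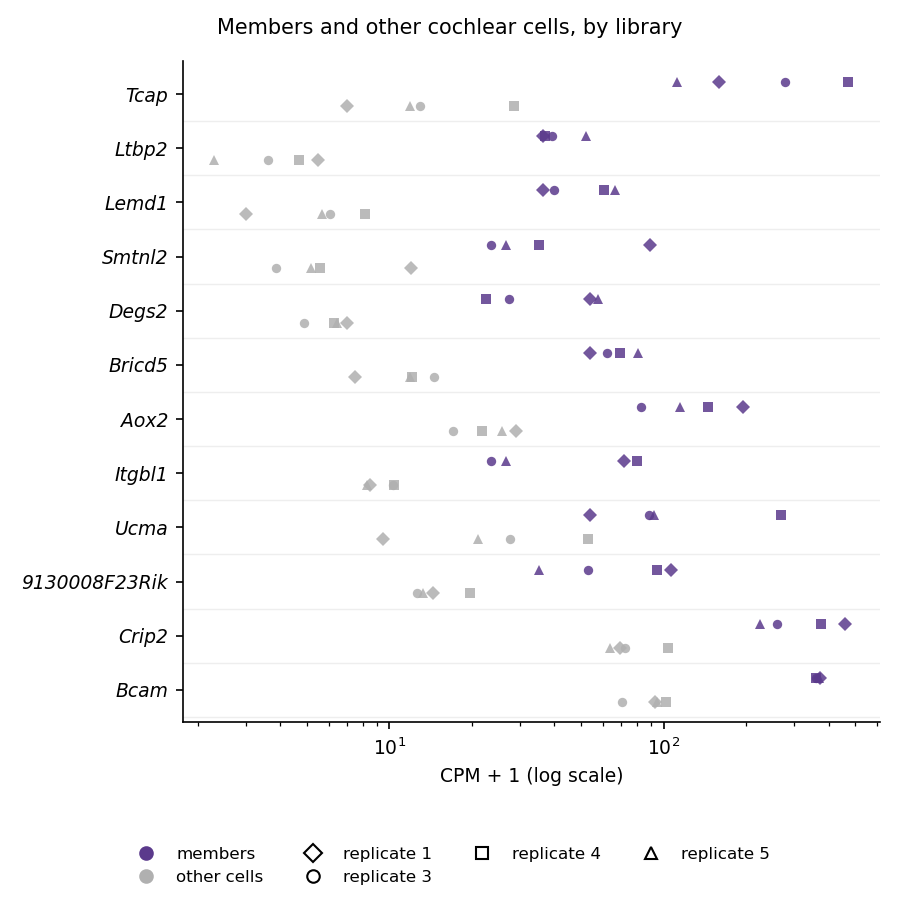
Summed levels of the 12 leading genes outside the rule in CPM + 1 on a log axis, with members in purple and the other cochlear cells in grey, 1 symbol per replicate. For Tcap the 4 member values lie between 111 and 470 CPM and the other cells at or below 27.4 CPM.

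Of 13 claudin and tight junction genes measured against other cells, 1 was at least 2-fold higher in all libraries, beside 1.76% of all genes, with a median log2 ratio of 0.49 beside -0.06 over all 7515 genes. Of the 2 connexins measured, Gjb2 stood at 916, 818, 954 and 628 CPM and Gjb6 at 652, 539, 570.4 and 469 CPM, and neither was 2-fold higher in every library. These gap junction subunits join the supporting epithelium of the cochlea. Of 12 acid-base transport genes none was called in either direction, beside 1.76% higher and 6.88% lower over all genes, and the median log2 ratio was -0.21.

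Foxi1, a forkhead factor that drives Slc26a4 in the endolymphatic sac, had no UMI in the 383 members, and 3 of the 6889 other cells held one. Tecta and Tectb, the tectorins of the tectorial membrane, were close to 0: Tecta had no UMI in members and Tectb stood at 0, 0, 0 and 2.84 CPM. Otogl, an otogelin-like glycoprotein of the same matrix, stood at 352, 104, 187 and 73.9 CPM in members against 73.3, 36.2, 39.3 and 35.7 CPM in other cells and was at least 2-fold higher in all 4 libraries.

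The 2 genes that divide the members are shown by their promoter windows, 250 bases before and 50 after the transcript start (RefSeq, GRCm38.p6, transcript strand). Epyc is added because its fitted log2 difference between the organs, described further on, was the largest among the leading genes of both tests. The vestibular side held 0 UMIs in pendrin cells and 2 in Otoa cells, so that size is not exact. Capitals mark matches, on either strand, to the forkhead core TGTTTAC and to the core of the GATA factors, which was searched as AGATAA. Otoa lies at chr7:121083174-121083473 (plus strand), Slc26a4 at chr12:31559935-31560234 (minus strand) and Epyc at chr10:97643818-97644117 (plus strand).
Otoa: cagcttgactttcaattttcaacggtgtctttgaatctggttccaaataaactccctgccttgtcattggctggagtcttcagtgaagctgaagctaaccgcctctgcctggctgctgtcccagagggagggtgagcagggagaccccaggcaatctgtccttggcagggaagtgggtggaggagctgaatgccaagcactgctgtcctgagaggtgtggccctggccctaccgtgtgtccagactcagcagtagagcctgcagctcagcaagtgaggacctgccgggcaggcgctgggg
Slc26a4: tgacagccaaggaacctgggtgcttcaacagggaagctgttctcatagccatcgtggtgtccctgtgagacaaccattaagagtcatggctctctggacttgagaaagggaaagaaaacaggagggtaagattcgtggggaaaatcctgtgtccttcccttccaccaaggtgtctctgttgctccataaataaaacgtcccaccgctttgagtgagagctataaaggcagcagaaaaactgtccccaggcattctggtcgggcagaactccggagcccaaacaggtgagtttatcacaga
Epyc: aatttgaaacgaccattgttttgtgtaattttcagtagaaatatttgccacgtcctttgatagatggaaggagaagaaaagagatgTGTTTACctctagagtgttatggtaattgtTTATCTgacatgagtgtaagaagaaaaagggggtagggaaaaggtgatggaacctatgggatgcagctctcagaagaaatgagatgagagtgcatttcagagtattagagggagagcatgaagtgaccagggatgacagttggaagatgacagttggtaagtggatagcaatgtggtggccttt
The forkhead core occurred in 3.65% of 32851 windows of this length and the GATA core in 11.2%. The Otoa and Slc26a4 windows held neither, and the Epyc window shown held 1 of each. RefSeq gives a second Epyc window, at chr10:97646853-97647152, with 1 GATA core and no forkhead core. The one shown is at the annotated gene start. The motifs were picked with the Foxi1 and Gata3 values known, and a match describes letters only.

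Within the members, Otoa cells and pendrin cells were compared in replicates 3, 4 and 5, since replicate 1 had only 3 Otoa cells. At a mean of at least 20 CPM, 40 of 6829 genes were at least 2-fold higher in Otoa cells in all 3 libraries (0.586%) and 130 in pendrin cells (1.90%). This rule has no error control, and 20 CPM is 1.68 UMIs in the smallest sum, the pendrin cells of replicate 5. With a minimum of 50 CPM the counts were 12 and 52. A gene enters by its mean in the group where it is higher, so a called gene may be near 0 in the other. Slc26a4, which made the division, stood at 635, 548 and 820.1 CPM in pendrin cells and 61.2, 18.0 and 22.0 CPM in Otoa cells. Otoa itself stood at 341, 204 and 219.6 CPM in Otoa cells and 138, 75.3 and 202 CPM in pendrin cells and was not 2-fold apart in every library, with little difference in replicate 5. Slc26a4 and Fxyd3, both rule genes, are among the 130.

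Pendrin cells carried Dclk1, a doublecortin-like kinase, at 192, 335 and 178 CPM in replicates 3, 4 and 5, against 16.0, 0 and 0 CPM in Otoa cells, from 170 and 6 UMIs. Lrp2, the endocytic receptor megalin, stood at 527, 276 and 1259.9 CPM against 189, 6.003 and 0 CPM. Dkk2, a secreted Wnt modulator, stood at 184, 79.5 and 273 CPM against 31.9, 0 and 0 CPM. In all 3 genes each library was higher in pendrin cells, and the Otoa cells of replicate 3 held most of the UMIs seen on their side. Other cochlear cells averaged 37.9 CPM of Dclk1, 142 of Lrp2 and 28.7 of Dkk2. In none of the 3 were members as a whole at least 2-fold above those cells in every library. Lrp2 and Dkk2, unlike Dclk1, ranked the pendrin cells of these libraries as the Reissner membrane markers given below did. The part of Reissner membrane cells in these values was not tested.

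Anxa1, a phospholipid-binding annexin listed with root and spindle cell genes, stood at 522, 213 and 1569 CPM in pendrin cells against 2.66, 0 and 0 CPM in Otoa cells. It was the 1 gene called of 6 measured on that list, beside 1.90% of all genes. The median log2 ratio of the list was -0.05 beside -0.13 over all genes, and the list's sum was higher in Otoa cells in all 3 libraries, at 5318, 6069 and 6375 CPM against 5214, 3994 and 4101 CPM. Fxyd3, a rule gene that encodes a sodium pump regulator, averaged 564 CPM against 131 CPM over the 3 libraries. Krt8 and Krt18, keratins of simple epithelia, averaged 126 and 159 CPM in pendrin cells against 23.1 and 25.1 CPM. Both keratins were at least 2-fold higher in pendrin cells in all 3 libraries, the 2 called of 8 measured on the epithelial adhesion and keratin list. Tbx3 and Pax2, transcription factors of the otic epithelium, were called the same way at low levels, 47.6 and 28.2 CPM. Of 16 epithelial transcription factors measured, 3 were called in pendrin cells and 0 in Otoa cells, beside 1.90% and 0.586% of all genes.

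Markers of other cells differed between the 2 kinds as well. Reissner membrane markers summed to 2731, 1204 and 6323 CPM in pendrin cells and 1934, 48.0 and 95.2 CPM in Otoa cells, led by Vmo1, and 14 of the 155 pendrin cells held at least 3 of the 6 markers against 3 of the 101 Otoa cells. Supporting cell markers ran the other way, with sums of 654, 348 and 593 CPM in Otoa cells and 317, 83.6 and 297 CPM in pendrin cells, and 15 Otoa cells held at least 3 of them against 7 pendrin cells. Of the 6 genes measured on the Reissner membrane list, 2 were among the 130 genes, Enpep and Meis2, beside 1.90% of all genes. Without cells that held another class's markers, 58 genes were higher in Otoa cells and 149 in pendrin cells. Red blood cell genes summed to 5803, 4.18 and 131 CPM in pendrin cells and neutrophil genes to 3402, 0 and 0 CPM, so replicate 3 carried both. In Otoa cells the means were 70.3 and 5.32 CPM.

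Otoa cells carried 9230102O04Rik, an uncharacterised gene, at 101, 120.1 and 198 CPM against 38.4, 29.3 and 11.9 CPM in pendrin cells, from 85 and 23 UMIs. Sox2, a transcription factor of supporting cells, stood at 106, 60.0 and 87.8 CPM against 38.4, 4.18 and 0 CPM. Sox2 is also one of the 6 supporting cell markers. Aqp11, an aquaporin, averaged 93.9 CPM in Otoa cells and 41.2 CPM in pendrin cells. Lockd, Fzd4, Slc4a4, Tmem229a, Smarca1, Mpp2, Rnd1 and Hey1 completed the 10 leading genes, each with 15 to 49 UMIs in Otoa cells. Of the 9 leading genes that are not themselves supporting cell markers, 6 had a higher mean in supporting-marker cells than in Otoa cells, among them Lockd with 279 CPM against 61.4 CPM and Hey1 with 82.8 CPM against 26.0 CPM. 9230102O04Rik averaged 133 CPM there, against 139.6 CPM in Otoa cells.

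Car3, a carbonic anhydrase, averaged 767 CPM in Otoa cells against 115 CPM but was not 2-fold higher in every library. Its values in Otoa cells were 567, 1477 and 256 CPM and in pendrin cells 92.2, 50.2 and 202 CPM. Over 10 acid-base genes measured in the division, 2 were called in Otoa cells, Slc4a4 and Car14, and none in pendrin cells, beside 0.586% and 1.90% of all genes, with a median log2 ratio of -0.08 beside -0.13 over all genes. Slc4a4 rests on 15 UMIs against 2.

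The pendrin cells of replicate 1, which the division did not use, were only 5 cells with 33278 UMIs, and they did not repeat it. Of the 10 leading pendrin genes, 8 had no UMI there, Lrp2 and Dkk2 among them, while Dclk1 stood at 300.5 CPM, above every Otoa library. Of the 10 leading Otoa genes, 6 stood above every Otoa library in these 5 cells, with Sox2 at 240.4 CPM from 8 UMIs, and 4 stood below. Supporting cell markers summed to 1623 CPM in these 5 cells, and 2 of the 5 held at least 3 of them, and the part of this in their values was not tested. The differences of the division are therefore those of replicates 3, 4 and 5.

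**Figure D3:**
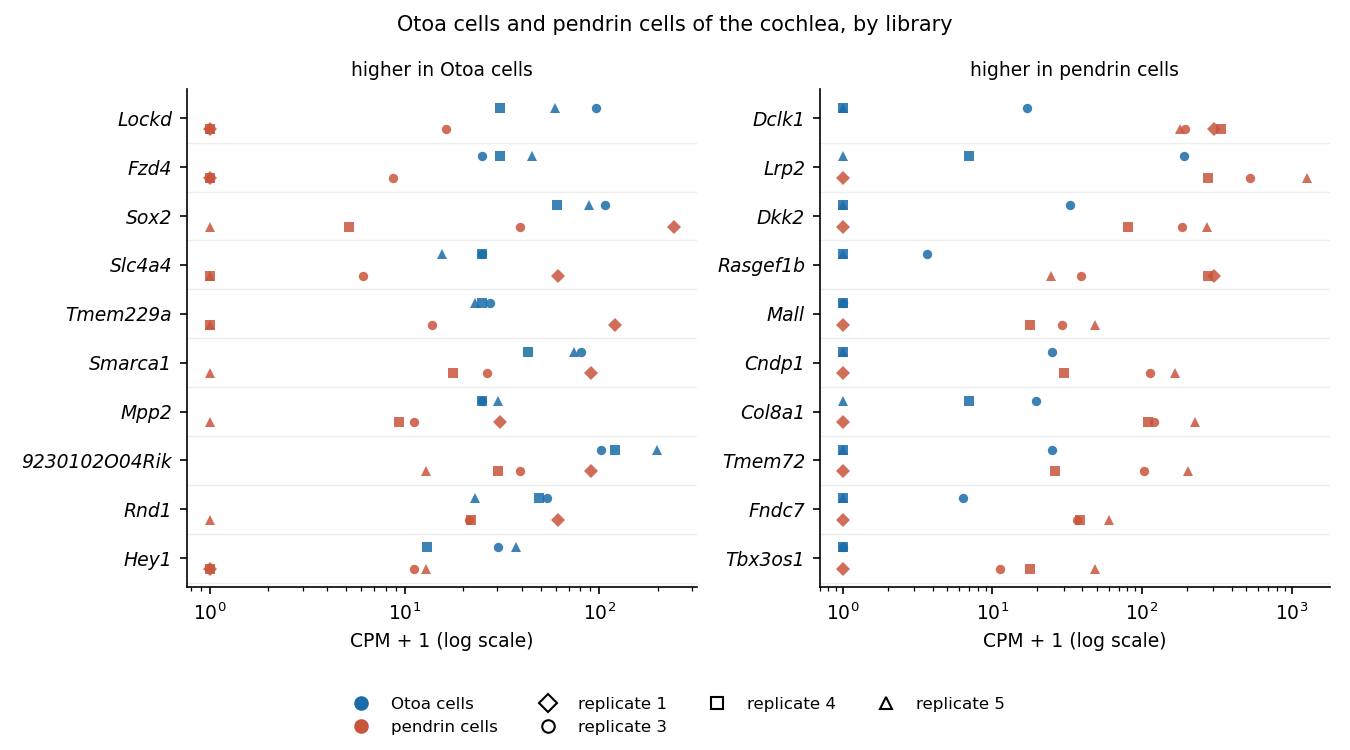
Summed levels in CPM + 1 on a log axis of the 10 leading genes in each direction, with Otoa cells in blue and pendrin cells in red, 1 symbol per replicate. Diamonds are the 5 pendrin cells of replicate 1, which did not choose the genes, summed, and in the right panel 8 of the 10 diamonds lie at 0 CPM, plotted at 1.

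The same rule was then applied to the vestibule, where it gave 510 members, 273 Otoa cells and 167 pendrin cells, so that organs could be compared. The rule did not act alike in both organs. Ceacam16 had a UMI in 89.3% of cochlear and 2.16% of vestibular members, and Mia in 68.7% and 95.7%. At least 3 markers of another class were held by 232 of the 510 vestibular members (45.5%), 144 of them with supporting cell markers, beside 25.8% of the cochlear ones. Organ and this route of entry cannot be told apart. The 12 rule genes stayed in the table that was fitted and adjusted, but nothing is read from their calls.

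In pendrin cells, with 4 libraries per organ, edgeR's quasi-likelihood test called 98 genes higher in cochlea (4.36% of 2250 tested) and 110 higher in vestibule (4.89%) at an adjusted p below 0.05, 208 in all (9.24%). These include 3 of the 7 rule genes tested, and 96 and 109 genes outside the rule. Libraries of the organs did not overlap in 323 genes (14.4%). The labels do not link animals to libraries, so these p-values measure the spread between libraries, which may be technical. Summed means of other cells' markers differed between the organs in these cells. Supporting cell markers averaged 580.2 CPM in cochlea and 1448 CPM in vestibule, and fibrocyte markers 626 and 1337 CPM. Reissner membrane markers averaged 2610 and 1542 CPM, from 180, 2731, 1204 and 6323 CPM in cochlea and 3384, 843, 721 and 1221 CPM in vestibule. Red blood cell genes averaged 2033 and 259.8 CPM, with cochlear values of 2194, 5803, 4.18 and 131 CPM. Libraries of the organs overlapped in each of these lists. The part of these other cells in the calls was not tested gene by gene. Otog, one of the 6 supporting cell markers, made up 959 CPM of their vestibular sum. Without cells that held another class's markers the counts were 103 and 116 of 1068 genes, but cochlear replicate 1 then kept 2 cells and dropped out, and leaving out that library alone gave 124 and 161 of 2495 genes.

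Epyc, the leucine-rich proteoglycan epiphycan (chromosome 10, 97644068 to 97682454), stood at 1022, 3545, 2028 and 1307 CPM in cochlear pendrin cells and at 0 in all 4 vestibular libraries. Over the summed UMIs this was at least 674-fold higher, taking a limit of 3 UMIs over the group at 0, which covers counting error only (adjusted p = 8.91e-06). The bound was 441-fold without cochlear replicate 3 and 279-fold without vestibular replicate 3. In cochlear macrophage-marker cells Epyc averaged 56.8 CPM. The pendrin cells were thus above that background in every library. The outer sulcus, root and spindle cell list, which Epyc led in members, was also abundant in other cochlear cells. It summed to 4446 CPM in pendrin cells, 3901 CPM in supporting-marker cells and 2452 CPM in all cells outside the members. Whether Epyc sets pendrin cells apart from other cochlear epithelium was not tested.

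Gata3, a zinc finger factor required for the cochlea, stood at 871, 379, 301 and 309 CPM in cochlea and 0, 20.5, 15.2 and 0 CPM in vestibule (log2 difference 4.81, SE 0.54, adjusted p = 3.06e-05). Lgals1, the lectin galectin-1, stood at 481, 4203, 2141 and 1640.2 CPM against 22.0, 40.9, 7.59 and 0 CPM (log2 difference 6.35, SE 0.70, adjusted p = 2.69e-05). Padi1, a peptidylarginine deiminase, stood at 90.1, 568, 351 and 238 CPM against 22.0, 27.3, 22.8 and 0 CPM (log2 difference 3.85, SE 0.50, adjusted p = 1.13e-04). The rule for naming genes required that the organs not overlap. Lgals1 was also abundant in macrophage-marker cells, at 981 CPM in cochlea and 992 CPM in vestibule.

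Clu, the secreted chaperone clusterin, stood at 2524, 2109, 5081 and 3066 CPM in cochlea and 389, 418, 53.2 and 399 CPM in vestibule (log2 difference 3.28, SE 0.51, adjusted p = 5.38e-04). Gjb6, a connexin, differed too (log2 difference 2.07, SE 0.47, adjusted p = 0.01), while Gjb2 did not pass (log2 difference 1.35, SE 0.44, adjusted p = 0.072). Nat8l, an N-acetyltransferase, Phyhipl, 9530077C05Rik, Prss36, a serine protease, and Plcd3, a phospholipase, were the other leading genes higher in cochlea. Fxyd6 and Sgk1, both regulators of sodium transport, were higher in cochlea (log2 difference 3.27, SE 0.46, adjusted p = 2.48e-04 for Fxyd6). Sgk1 averaged 309 CPM in cochlea and 79.4 CPM in vestibule, beside 203 and 43.2 CPM in macrophage-marker cells.

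Otol1, the otolith matrix protein otolin (chromosome 3, 70007613 to 70028708), had no UMI in cochlear pendrin cells and stood at 1307, 468, 820.1 and 681 CPM in vestibule, at least 173-fold higher over the summed UMIs (adjusted p = 8.91e-06) and 82.5-fold without cochlear replicate 3. Aldh1a3, a retinoic acid-synthesising dehydrogenase, was at 0 in cochlea and 154, 227, 304 and 117 CPM in vestibule. Mybpc1, a myosin-binding protein, stood at 0, 5.12, 0 and 23.8 CPM against 727, 552, 782 and 704 CPM (log2 difference -6.83, SE 0.55, adjusted p = 3.53e-06).

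Bricd5, among the leading genes of cochlear members, was much higher in vestibule, at 2870.0, 1485, 4503 and 1456 CPM against 30.0, 92.2, 121 and 178 CPM (log2 difference -4.57, SE 0.48, adjusted p = 2.34e-05). Otog, the glycoprotein otogelin of acellular gels, was higher in vestibule as well (log2 difference -3.50, SE 0.54, adjusted p = 5.38e-04). Coch, cochlin, stood at 60.1, 43.5, 8.36 and 11.9 CPM against 1659, 1942, 387 and 305 CPM (log2 difference -5.32, SE 0.73, adjusted p = 2.05e-04). Coch is abundant in fibrocytes, and it averaged 1715 CPM in cochlear and 2528 CPM in vestibular macrophage-marker cells, above the pendrin cells of either organ on average. Ctxn3, Sod3, Agr3, Cspg5, D430041D05Rik and Nrp2 were the other leading genes.

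**Figure D4:**
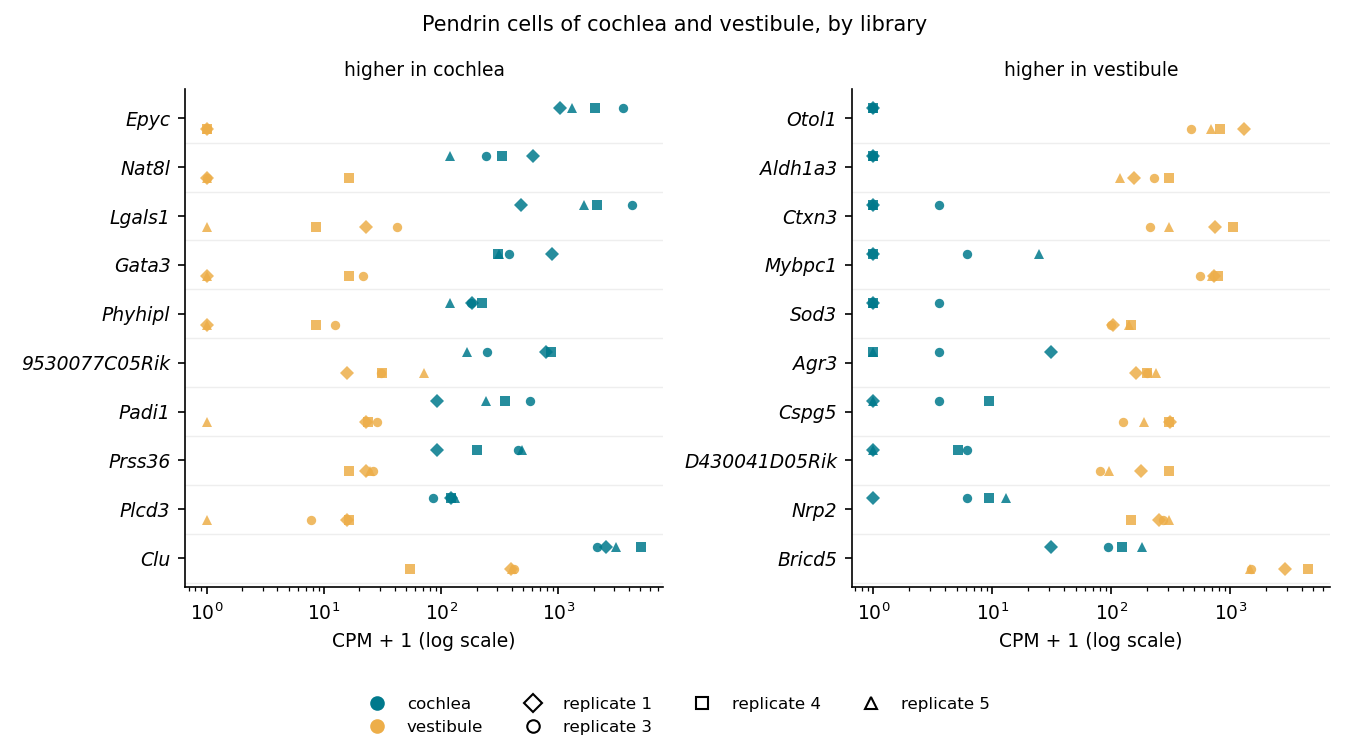
Pendrin cells of cochlea (teal) and vestibule (yellow), as summed levels in CPM + 1 on a log axis for the 10 leading genes in each direction, 1 symbol per replicate. Genes were chosen for organs that do not overlap, and Epyc lies at 0 in all 4 vestibular libraries.

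By group, 2 of 12 tested antioxidant genes were higher in cochlear pendrin cells and 1 in vestibule, beside 4.36% and 4.89% of all genes, with a median log2 difference of 0.13 beside 0.01 over all genes. Gpx2 was one of the 2 (log2 difference 2.03, SE 0.29, adjusted p = 3.01e-04). Of 8 antigen presentation and inflammation genes none was higher in cochlea and 2 were higher in vestibule, Ptgds and H2-D1, with a median log2 difference of -0.79, beside 4.89% of all genes higher in vestibule. Ptgds in macrophage-marker cells averaged 934 CPM in cochlea and 23131 CPM in vestibule, against 6102 CPM in vestibular pendrin cells, and H2-D1 averaged 1120.0 and 771 CPM there. Both genes thus lay below macrophage-marker cells in vestibule.

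In Otoa cells the organs were compared with 3 cochlear libraries and 4 vestibular ones. There 401 of 3184 genes were higher in cochlea (12.6%) and 510 in vestibule (16.0%), 911 in all (28.6%), by the same test, of which 399 and 506 lay outside the rule, and libraries did not overlap in 1172 (36.8%). These sums come from the same libraries as the pendrin cells, so the tests are not independent. Supporting cell markers summed to 532 CPM in cochlear and 3355 CPM in vestibular Otoa cells, and 108 of the 273 vestibular cells held at least 3 of them. Otog made up 2230.3 CPM of the vestibular sum. Fibrocyte markers summed to 405 CPM in cochlear and 1084 CPM in vestibular Otoa cells, and neutrophil genes to 5.32 and 938 CPM. Reissner membrane markers summed to 692 and 1107 CPM, and the cochlear mean came from 1934, 48.0 and 95.2 CPM in replicates 3, 4 and 5. The part of these other cells in the difference was not tested gene by gene, and without cells that held another class's markers the counts were 214 and 222 of 1073 genes.

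Epyc stood at 3866, 4592 and 4846 CPM in cochlear Otoa cells and 0, 1.22, 3.26 and 0 CPM in vestibular ones (adjusted p = 5.07e-11). Gata3 stood at 694, 594 and 922 CPM against 33.5, 14.6, 13.0 and 5.85 CPM (log2 difference 5.50, SE 0.34, adjusted p = 2.10e-08). Padi1 stood at 553, 900.5 and 681 CPM against 11.2, 17.0, 13.0 and 40.9 CPM (log2 difference 5.20, SE 0.33, adjusted p = 2.18e-08). All 3 genes were thus higher in cochlea in both kinds of cell, at values of their own in each test. Tdrd12, a tudor-domain protein, stood at 795, 1855 and 849 CPM against 5.58, 12.2, 9.78 and 0 CPM (log2 difference 6.93, SE 0.43, adjusted p = 2.10e-08).

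Connexins were higher in cochlear Otoa cells, both of 2 tested, with Gjb2 at 854, 1129 and 864 CPM against 245, 227, 199 and 234 CPM (log2 difference 2.07, SE 0.21, adjusted p = 2.60e-06). Of 5 acid-base genes tested 4 were higher in cochlea and 1 in vestibule, beside 12.6% and 16.0% of all genes, with a median log2 difference of 1.69 beside -0.03 over all 3184 genes. Car3 was among the 4 (log2 difference 1.71, SE 0.46, adjusted p = 0.011), whereas in pendrin cells it was higher in vestibule (log2 difference -2.10, SE 0.50, adjusted p = 0.014). Car3 in macrophage-marker cells averaged 41.2 CPM in cochlea and 1224 CPM in vestibule, the latter above the mean of 357 CPM in vestibular pendrin cells, and the part of this background was not tested. The difference between the 2 kinds of cell in this organ effect was not tested.

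Tecta had no UMI in cochlear Otoa cells and stood at 189.6, 164, 108 and 140.3 CPM in vestibular ones, at least 34.6-fold higher over the summed UMIs (adjusted p = 3.52e-06) and 15.5-fold without cochlear replicate 3. Otog stood at 104, 60.0 and 80.5 CPM against 3803, 1788, 1787 and 1544 CPM (log2 difference -4.71, SE 0.39, adjusted p = 3.81e-07). Of 6 tectorial membrane and limbal matrix genes tested, 5 were higher in vestibule and none in cochlea, beside 16.0% and 12.6% of all genes, with a median log2 difference of -2.99. Otogl was among the 5 (log2 difference -2.67, SE 0.32, adjusted p = 1.68e-05).

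Meis2 and Hmx2, homeobox factors, were higher in vestibule, with Meis2 at 2.66, 0 and 0 CPM against 418, 382, 408 and 304 CPM. Meis2 is also on the Reissner membrane list. Hmx2 had no UMI in cochlear Otoa cells and stood at 89.2, 70.6, 117 and 46.8 CPM. Sod3, an extracellular superoxide dismutase, and Apoc1, an apolipoprotein, were at 0 in cochlea, and their vestibular values ranged widely, at 485, 196, 81.5 and 23.4 and 357, 132, 336 and 64.3 CPM. Tnfaip2, Abca13, Sbspon, D430041D05Rik and Ctxn3 completed the leading genes. Red blood cell genes summed to 4662 CPM in vestibular Otoa cells of replicate 3 and 27721 CPM in those of replicate 5, against 94.8 and 124 CPM in replicates 1 and 4.

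**Figure D5:**
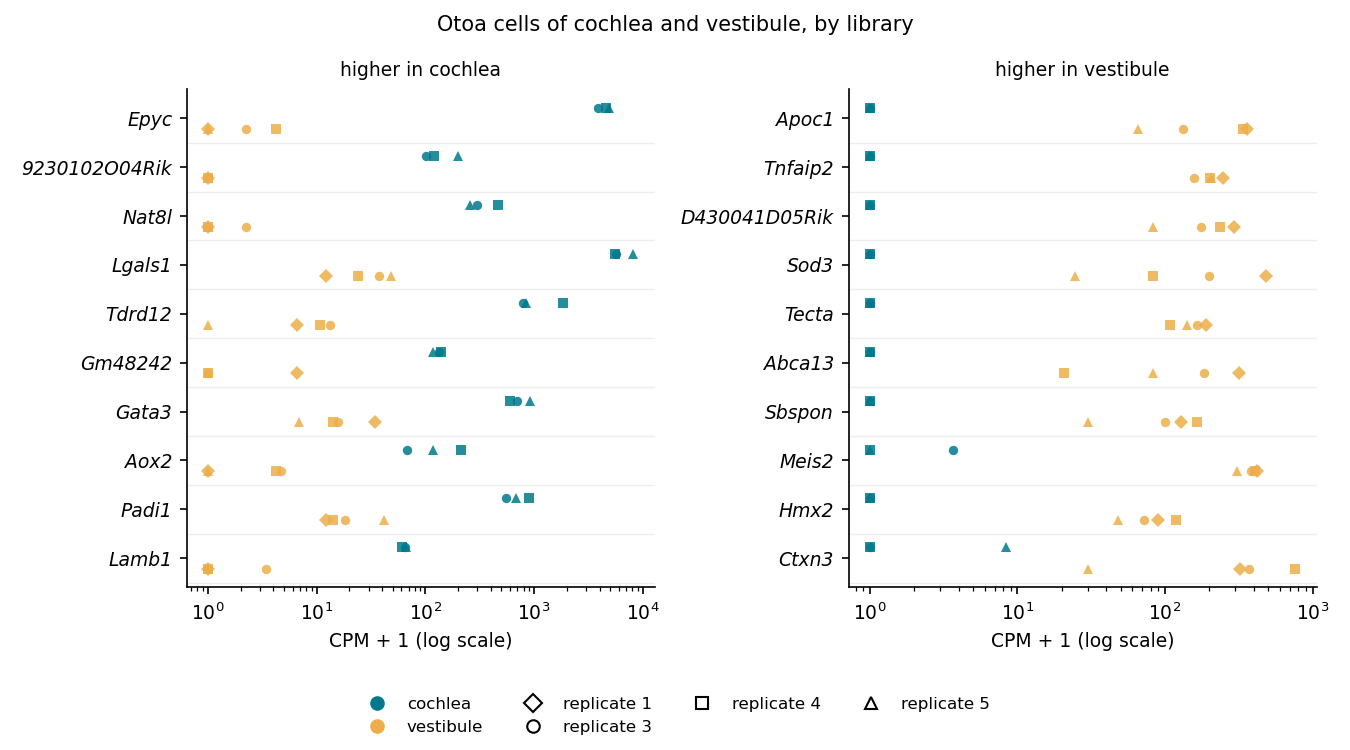
Otoa cells of cochlea (teal, replicates 3, 4 and 5) and vestibule (yellow, 4 replicates), as summed levels in CPM + 1 on a log axis for the 10 leading genes in each direction. Genes were chosen for organs that do not overlap, and Epyc in cochlea lies at 3866, 4592 and 4846 CPM.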

How the data were processed

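The deposited files hold counts of UMIs per gene and barcode, which the authors made with Cell Ranger on mm10. The file headers name version 5.0.1 for replicates 1 and 2 of each organ and 6.1.2 for the others, so version and library cannot be told apart. Deposited filtered matrices held 1130 to 12397 barcodes in the cochlear libraries, and no doublet caller was run here.

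UMIs were summed per library and kind of cell, with at least 5 cells, and given as CPM. Descriptions used log2(CPM + 1) and a 2-fold difference in every library. Organs were tested with edgeR 4.0.16 (R 4.3.3; TMM, filterByExpr, quasi-likelihood test, Benjamini-Hochberg over all genes tested, threshold 0.05), and DESeq2 1.42.0 was an alternative. The tests were checked on simulated data; the 2-fold rule of the division calls some unchanged genes of low count, so its counts are also given at 50 CPM. Positions are from GENCODE on GRCm38.

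Members and gene lists were chosen with earlier results of these data known. Named genes excluded the 12 rule genes, mitochondrial, ribosomal protein and haemoglobin genes. They were the 12 leading genes of members (at least 20 CPM in every library), the 10 leading in each direction of the division (also 2-fold above macrophage-marker cells), and the 10 leading in each direction of each organ test (past the threshold, libraries not overlapping, at least 20 CPM and 2-fold above macrophage-marker cells). Other genes came from the lists, and Foxi1 and Tectb were named for values at or near 0 after these were seen.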

Additional observations from a re-analysis of the deposited data

Results flagged for a closer look

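Of 81 sets of library values checked, 9 held a library whose gap to the nearest of the others exceeded the limit for 4 samples. Chance gives about 1 in 20 where values follow a normal distribution, which counts near 0 do not, so the 9 cannot be set against that rate. In pendrin cells, Gata3 stood at 871 CPM in cochlear replicate 1, against 301 to 379 CPM in the other cochlear libraries. Clu stood at 53.2 CPM in vestibular replicate 4, against 389 to 418 CPM in the others. Agr3 stood at 30.0 CPM in cochlear replicate 1, which is 1 UMI of 33278, against 0 to 2.56 CPM.

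The remaining 6 were single libraries with 1 or 2 UMIs where the others had 0. Such a set always exceeds the limit. Nat8l stood at 15.2 CPM in vestibular pendrin cells of replicate 4, and Ctxn3 and Sod3 each at 2.56 CPM in cochlear pendrin cells of replicate 3. In vestibular Otoa cells, Nat8l stood at 1.22 CPM and Lamb1 at 2.44 CPM in replicate 3, and Gm48242 at 5.58 CPM in replicate 1.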

How the results depend on the processing

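The counts depended on thresholds and depth. The share of members was 15.6% with 2 of 6 markers and 2.13% after thinning to 1000 UMIs. In the division, higher in Otoa and in pendrin cells respectively, counts were 13 and 50 with a pseudocount of 10, 12 and 52 with a minimum of 50 CPM, 111 and 254 with none, and 85 and 218 thinned. They were 118 and 251 in cells with at least 2 UMIs of the dividing gene (chosen after seeing the data), and 86 genes were higher in Otoa cells by means over cells. Leaving out 1 library, which asks for agreement in fewer libraries, gave 97 to 197 and 225 to 605. Among the values of the leading genes of the division over the settings tried, 231 were counted as the same, 28 as moved and 1 as reversed. After thinning, the log2 ratio of Hey1 reversed to -1.17 and that of Tmem229a was 0, and the cause was not tested.

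Organ counts, higher in cochlea and in vestibule, were 273 and 369 in pendrin cells without the low-count filter, 58 and 67 with 4 of 6 markers (where cochlear replicate 1 kept 3 pendrin cells and dropped out too) and 21 and 25 thinned. In Otoa cells, they were 204 and 285 with 4 of 6 markers, 214 and 222 without cells holding other markers and 87 and 104 thinned, where fewer genes were tested (281 in pendrin and 715 in Otoa cells). In Otoa cells 983 were higher in vestibule without the filter and 243 higher in cochlea by the loose rule. Leaving out 1 library gave 77 to 128 and 87 to 161 in pendrin cells and 319 to 438 and 376 to 536 in Otoa cells. The 20 leading genes of each organ test, of which 8 lead in both, kept direction and threshold in that test wherever they were tested, but after thinning 14 of these 40 values passed the filter. Cochlear replicate 1 also dropped out of the pendrin comparison by the loose rule and without cells holding other markers.

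Correlations of the deviations of same-numbered libraries ran from -0.03 to 0.24 in pendrin cells and 0.02 to 0.25 in Otoa cells. Replicate 4 had the highest in both kinds of cell. Whether same-numbered libraries share animals cannot be told from these values, since the labels do not link animals to libraries. The main organ tests did not pair them. With the replicate block, 159 and 166 genes were called in pendrin cells (of 3207 tested, against 2250 without it) and 463 and 567 in Otoa cells. The division never used replicate 1, which held 3 Otoa cells, so no value without it differs.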
